A study of Danio rerio with 4 samples.

Results

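The 4 genes described here are tekt1, efhc2, cimip2b and cimap1b. They encode a tektin, ciliary microtubule inner proteins and, for cimap1b, a ciliary microtubule associated protein. The genes were taken by name, as every probe set whose only gene symbol in the array annotation was one of these symbols. That gave 1 probe set per gene, 4 in all, out of 8793 genes with such a probe set. They had been chosen because their signals differed between the groups compared here, so their group differences are given as a description, with no test.

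RNA had been measured on 4 Affymetrix zebrafish arrays, 2 for each of 2 groups, and the series design speaks of independent biological sets. All embryos were of the AB background, carried Tg(cmyb:EGFP), in which the promoter of the transcription factor gene myb drives green fluorescent protein, and were used 3 days after fertilization. The control group had received a control morpholino and the other group a morpholino against the microRNA miR-34b (called morphants here). A morpholino is an antisense oligomer, and injection into the embryo does not limit it to the sorted cells. In both groups 20000 GFP-positive cells, which the labels call kidney multiciliated cells, were sorted from a dissected tissue block containing the kidney after trypsin digestion, and 100 ng of their RNA was amplified. Each array is therefore a pool of sorted cells of dissected embryos, and fewer cells of a type cannot be told apart from less RNA per cell.

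A motile cilium is built on doublet microtubules, each made of a complete A tubule and an attached B tubule. The inner walls of both are lined by microtubule inner proteins, which repeat along the doublet and stiffen it. Tektins are coiled-coil filament proteins that run lengthwise inside the A tubule. Multiciliated cells of the zebrafish pronephros, the embryonic kidney, move fluid along the tubule.

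The signals of all 4 genes were higher in both morphant arrays than in both control arrays, by 4.84- to 7.82-fold in the group means. The smallest of these differences was that of efhc2 and the largest that of cimip2b. Across all 11626 probe sets tested, 25.1% had groups that did not overlap with the morphants higher, and 4.62% were in addition at least 2-fold higher. Since the genes were chosen from this contrast, nothing is read from their count against that background.

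tekt1 encodes tektin 1, a filament protein of the A tubule. Its log2 signal was 9.88 and 9.74 in the controls, against 12.19 and 12.02 in the morphants. The 2 arrays of each group lay close together and the groups were far apart. The mean difference was 2.30 ± 0.17 on the log2 scale (SE from limma, n = 2 against 2), or 4.92-fold, and the 4 differences between a morphant and a control array ran from 2.14 to 2.45.

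efhc2 encodes an EF-hand protein with DM10 domains, an inner protein of doublet microtubules in mammals. Its log2 signal was 8.96 and 8.86 in the controls, against 11.16 and 11.21 in the morphants. The arrays within a group were again nearly level, with the morphants well above. The difference was 2.27 ± 0.16, or 4.84-fold, and the array-by-array differences ran from 2.20 to 2.35, the narrowest range of the 4 genes.

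cimip2b, formerly fam166b, encodes ciliary microtubule inner protein 2B. Its log2 signal was 6.83 and 6.57 in the controls, against 9.64 and 9.69 in the morphants. It had the dimmest controls of the 4 probe sets, and its morphant arrays almost coincided. The difference was 2.97 ± 0.18, or 7.82-fold, with array-by-array differences from 2.81 to 3.12.

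cimap1b, formerly odf3b, encodes a ciliary microtubule associated protein of the family of ODF3, an outer dense fibre protein of mammalian sperm tails. Its log2 signal was 9.39 and 9.08 in the controls, against 11.83 and 11.36 in the morphants. It had the widest spread within each group, and in both groups replicate 1 was the brighter array. The difference was 2.36 ± 0.23, or 5.13-fold, with array-by-array differences from 1.97 to 2.75.

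**Figure D1:**
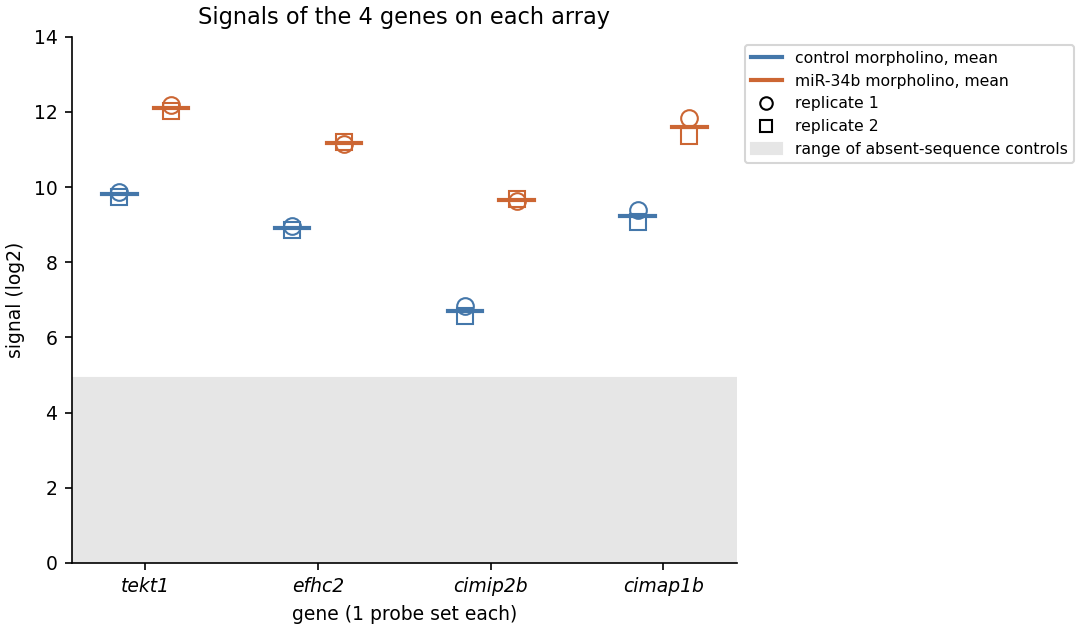
Log2 signal (vertical axis) of tekt1, efhc2, cimip2b and cimap1b (horizontal axis) on each array, with circles for replicate 1, squares for replicate 2 and a line at each group's mean; the grey band reaches to the brightest control probe set for a sequence not added to the samples, on any array. In each gene both morphant arrays lie above both control arrays, by 1.97 or more on the log2 scale.

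The spread between replicates was ordinary for tekt1 and efhc2 and wider for cimap1b. The median gap between the 2 control arrays over all 11626 probe sets was 0.19 on the log2 scale, and between the 2 morphant arrays 0.23. The gap between control arrays was 0.14 for tekt1, 0.10 for efhc2, 0.26 for cimip2b and 0.32 for cimap1b. Control replicate 1 was the brighter control in all 4 genes. The gap between morphant arrays was 0.17 for tekt1, 0.055 for efhc2, 0.050 for cimip2b and 0.47 for cimap1b. The cimap1b gap was wider than those of 78.3% of probe sets. In morphant arrays tekt1 and cimap1b were brighter in replicate 1, and efhc2 and cimip2b slightly brighter in replicate 2. For every gene the smallest difference between a morphant and a control array, from 1.97 to 2.81, was larger than either gap within a group.

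All 4 probe sets were above background on every array. The 20 control probe sets for sequences not added to the samples reached log2 signals of 3.71 to 4.93, depending on the array. The lowest margin over the brightest of them on the same array was 1.90 for cimip2b, 4.03 for efhc2, 4.46 for cimap1b and 4.95 for tekt1. No value of these genes is therefore only a bound.

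Among the 4 genes, tekt1, efhc2 and cimap1b followed close patterns and cimip2b stood apart. Likeness was measured as the root mean square distance between the 4 log2 values of 2 genes after each gene was centred on its own mean. It was 0.081 between tekt1 and efhc2, 0.13 between tekt1 and cimap1b and 0.20 between efhc2 and cimap1b. From cimip2b the distances were 0.35 to each of the other three. Relative to its controls, cimip2b was higher than tekt1 by a further 0.56 on morphant replicate 1 and 0.78 on morphant replicate 2. That excess was 0.69 on both morphant arrays against efhc2. On the deposited values, the array-by-array differences of cimip2b did not overlap those of tekt1, efhc2 and cimap1b. No test of this was made because the genes were chosen on this contrast. With 64 added to the linear signals the mean differences lay closer together. They were then 2.38 for cimip2b, 2.24 for cimap1b, 2.22 for tekt1 and 2.13 for efhc2. Ordered from the largest increase in the morphants downward, over all 11626 probe sets tested, cimip2b stood at place 7, cimap1b at 32, tekt1 at 36 and efhc2 at 39.

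By the same distance, the genes outside this set with the closest patterns were found among 8649 probe sets of a single named gene, over the 4 arrays. Those closest to tekt1 were cfap144 (distance 0.058), tmprss13b (0.067) and cyb5d1 (0.084). For efhc2 they were cluap1 (0.028), cyb5d1 (0.045) and zgc:172136 (0.046), whose signal on 1 control array was under the brightest absent-sequence control. Those nearest to cimip2b were btg4 (0.088), hoxb5a (0.15) and ncs1b (0.19), and the signals of btg4 and ncs1b did not exceed the brightest absent-sequence control on 1 control array each. The genes closest to cimap1b were rnf32 (0.100), eno4 (0.11) and a second probe set of tmprss13b (0.13). zgc:172136, btg4 and ncs1b passed the filter on dim probe sets only through their morphant arrays, so their being compared depended on their difference. With only 4 arrays, many genes that differ between the groups have near profiles, so the distances are descriptions.

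Of 14 other tektin and inner protein genes measured, 7 rose in the morphants, among them cfap144, cfap45 and cfap52, and the other 7, tekt3 among them, did not pass the test. A list of 65 such genes besides the 4 was drawn up with earlier results of these data known, so its counts are a description. Of the 65, 14 had a probe set under the names searched, and all of these passed the filter on dim probe sets. In limma's test over all 11626 probe sets (Benjamini-Hochberg adjusted p under 0.05), 7 of the 14 were called higher and 0 lower. Over the whole array 2.49% of probe sets were called higher and 0.12% lower. All 14 had an unadjusted p under 0.05, tekt3 with the morphants lower, as had 17.7% of all probe sets tested. The list's median log2 difference was 1.25, against −0.017 over all probe sets tested. In 13 of the 14 genes both morphant arrays were above both control arrays, and in tekt3 both were below. Over all probe sets tested, 25.1% were separate with the morphants higher and 24.7% with the morphants lower.

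The only other tektin with a probe set was tekt3, a filament protein of the same family. Its log2 signal was 8.54 and 8.17 in the controls, against 7.26 and 7.49 in the morphants, so the groups were separate and opposite in order to those of tekt1. The difference was −0.98 ± 0.21 and did not pass (adjusted p = 0.0928). It was the only gene of the 14 below 0. With 64 added to the linear signals, or with the filter set at the lowest 50%, the call for tekt3 became lower. Whether tekt1 and tekt3 differed in their response was not tested. The other genes listed with the tektins, tekt2, tekt4, tekt5, tektl1 and tektip1, had no probe set under the names searched.

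Of the EF-hand proteins, efhb rose by 1.20 ± 0.17 (limma adjusted p = 0.0340). Its log2 signal was 7.04 and 6.89 in the controls, against 8.15 and 8.18 in the morphants. This is a smaller difference than that of efhc2, with the groups separate in both genes.

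The inner junction closes the B tubule onto the A tubule, and 3 of its 4 listed genes had a probe set. cfap52, a WD-repeat protein, rose by 1.74 ± 0.20 (limma adjusted p = 0.0240), from 9.13 and 9.50 in the controls to 11.15 and 10.95 in the morphants. enkur, the calmodulin-binding enkurin, had a difference of 1.08 ± 0.18 and did not pass (adjusted p = 0.0523). cfap20, a conserved component of the junction, had 0.93 ± 0.17 and did not pass either (adjusted p = 0.0641). Both had separate groups, with 11.42 and 11.18 against 12.33 and 12.43 for enkur and 11.61 and 11.48 against 12.41 and 12.53 for cfap20.

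Among the other inner proteins, 5 of 9 rose and 0 fell, and all 9 lay above 0. The largest difference was that of cfap144, formerly fam183a, at 2.25 ± 0.18 (limma adjusted p = 0.0168), with 7.51 and 7.49 in the controls, against 9.89 and 9.63 in the morphants. It lay at almost the level of efhc2's difference. cfap45, a coiled-coil protein of the B tubule, rose by 1.85 ± 0.20 (adjusted p = 0.0207), and a second cfap45 probe set gave 1.73 ± 0.17 (adjusted p = 0.0183). The 2 probe sets of this gene therefore differed by less than their errors. cfap210, formerly ccdc173, rose by 1.74 ± 0.21 (adjusted p = 0.0250) and nme7, an inner protein with nucleoside diphosphate kinase domains, by 1.44 ± 0.18 (adjusted p = 0.0290). cfap90 rose by 1.30 ± 0.17 (adjusted p = 0.0286).

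The 4 of these that did not pass were spag8, pierce1, cfap126 and mdm1. spag8 had 1.40 ± 0.47 (adjusted p = 0.217), and its control arrays lay 1.43 apart on the log2 scale, farther than those of the other 13 genes. Without control replicate 1 its difference was 2.12 (limma adjusted p = 0.0483) and without control replicate 2 it was 0.69. pierce1 had 1.17 ± 0.23 (adjusted p = 0.0780) and cfap126, known in the mouse as Flattop, 0.95 ± 0.16 (adjusted p = 0.0549). mdm1, a microtubule-binding protein of centrioles, had 0.72 ± 0.26 (adjusted p = 0.242), the smallest of the values above 0. It was 0.45 without morphant replicate 1 and 0.99 without morphant replicate 2.

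The number of calls changed with each array left out and with the filter. A group left with 1 array has no spread of its own, and its array is assumed to vary like those of the other group. Without control replicate 1, cfap144 and spag8 were called higher, 2 of the 14 genes, and without control replicate 2, 1 was, cfap144. Without either morphant array 0 were called, as over the whole array, and with dim probe sets kept in limma again called 0 (2003 probe sets had unadjusted p under 0.05 without morphant replicate 2, 1917 without morphant replicate 1 and 2027 without the filter). The differences of the 7 genes called with all arrays ran from 1.22 to 2.13 without morphant replicate 1 and from 1.18 to 2.38 without morphant replicate 2. The sign of each of the 14 differences was kept in all 12 alternatives that measured it.

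**Figure D2:**
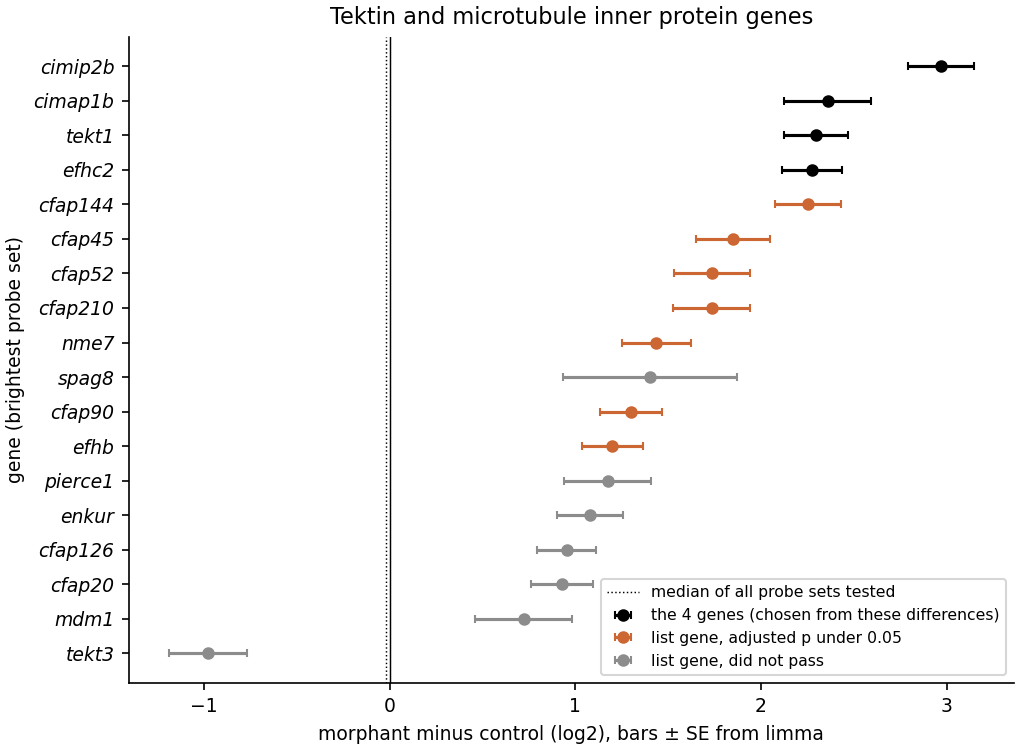
Morphant minus control log2 difference (horizontal axis, bars ± SE from limma, n = 2 against 2) of the 4 genes and of the 14 other tektin and inner protein genes with a probe set (vertical axis, ordered by difference). The values run from −0.98 for tekt3 to 2.97 for cimip2b, and the dotted line at −0.017 is the median of all probe sets tested.

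None of the 13 listed relatives of cimip2b and cimap1b had a probe set under the names searched. odf3l2a is an ODF3-like gene whose symbol was not among the names searched, and it was looked up after its values had been seen. It is not counted among the measured genes of the list. Its probe set was dim, at 4.22 and 5.51 in the controls, against 4.69 and 5.12 in the morphants. Its groups overlapped, with a mean difference of 0.035, and it did not pass the filter on dim probe sets.

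The genes were also set against markers of the cells that the labels name. Of 18 markers of multiciliated cells, 9 had a probe set, among them the transcription factors foxn4 and rfx2, the radial spoke and central pair genes rsph9 and spag6, and the dynein assembly genes dnaaf1, dnaaf11 and cfap298. The defining regulators foxj1a, foxj1b, gmnc, mcidas and ccno had no probe set under the names searched. All 9 measured markers were above 0 and 8 rose in limma's test, a count that was 1 without either control array and 0 without either morphant array, with all 9 above 0 each time. Over all probe sets tested 2.49% were called higher, and the median log2 difference was −0.017. The summed linear signal of the 9 markers was 4082 and 4197 in the controls, against 12808 and 12679 in the morphants. These markers were chosen with earlier results of these data known, so their rise is a description and is not read as a result about the cell type. The part of the marker difference in the differences of the 4 genes was not tested.

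The level of each gene was also taken relative to the mean log2 level of the 9 markers on the same array. Since the 4 genes were chosen for their differences, these values are a description too. That mean was 8.04 and 8.07 in the controls, against 9.77 and 9.75 in the morphants, a difference of 1.70. tekt1 lay above it by 1.84 and 1.67 in the controls, against 2.42 and 2.27 in the morphants, a relative difference of 0.59. The relative difference was 0.57 for efhc2, 0.66 for cimap1b and 1.26 for cimip2b. The single markers varied widely, from 1.13 ± 0.20 for the dynein arm gene dnai2a to 3.22 ± 0.21 for foxn4. The second largest marker difference was that of dnaaf1, at 1.97 ± 0.17. The differences of the 4 genes lay above that of dnaaf1 and below that of foxn4. dnai2a was the marker that did not pass (limma adjusted p = 0.0634), with 1 control array under the brightest absent-sequence control. dnai2a passed the filter on dim probe sets only through its morphant arrays, so its being tested depended on the difference that was tested.

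Markers of other cells were present and the summed signals of some lists differed between the groups. For the counts in these lists, the median log2 difference over all probe sets tested was −0.017. Of those probe sets 2.49% were called higher and 0.12% lower. The germ line list had 7 of its 8 measured genes above 0. Its summed signal was 628 and 642 in the controls, against 1250 and 1248 in the morphants. Most of that sum came from its brightest gene, sycp1, with log2 signals of 8.89 and 8.81 against 9.54 and 9.63. sycp1 did not pass (limma adjusted p = 0.0985). Of 4 tested, 1 rose, nanos3, an RNA-binding regulator of germ cells (2.02 ± 0.30, limma adjusted p = 0.0389, and 0.0796 to 0.105 with an array left out), with 1 control array under the brightest absent-sequence control. ddx4, the vasa helicase, had log2 signals of 1.81 and 4.40 on the control arrays, the first under the brightest absent-sequence control. On the morphant arrays it had 7.97 and 7.72, and it did not pass (limma adjusted p = 0.0580). Both nanos3 and ddx4 passed the filter on dim probe sets only through their morphant arrays. Their being tested therefore depended on the difference that was tested, and the call for nanos3 is given as a description. The defining marker dazl lay between 3.59 and 5.03, at or under the brightest absent-sequence control on 3 arrays. No marker of the list was within the absent-sequence range on all 4 arrays. The part of these cells in the differences was not tested.

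Against the same median and shares over all probe sets, neural markers had 11 of 12 above 0 and 0 past the test. Their summed signals were 3975 and 4956 in the controls, against 5498 and 5168 in the morphants. The neural marker below 0, fabp7a, was the brightest of that list on control replicate 2. Its log2 signals were 9.40 and 11.25 in the controls, against 10.17 and 9.49 in the morphants. Skeletal muscle markers had 17 of 17 below 0 and 0 past the test, with sums of 149225 and 110982 against 114249 and 91042, which overlapped. Connective tissue and cartilage markers had 9 of 9 below 0 and 0 past the test, with sums of 18533 and 21298 against 10445 and 13235. Pronephric tubule markers other than those of multiciliated cells had sums of 3887 and 4129 against 4662 and 4615, and of 6 tested 1 rose, the chloride channel gene clcnk (1.55 ± 0.21, limma adjusted p = 0.0320, and 0.0744 to 0.120 with an array left out). This pronephric list had 5 genes above 0 and 3 below. Most of its sums came from atp1a1a.4 and trpm7, which differed by 0.17 and −0.076. In this list slc12a3 and wt1a were within the absent-sequence range on all 4 arrays. The sums of the myeloid and leukocyte list overlapped, at 86480 and 80551 against 80346 and 84795, as did those of the erythroid, photoreceptor and epidermal lists. The blood stem and progenitor list had 4242 and 3708 against 3497 and 2831, with 4 genes above 0 and 5 below. Most of that sum came from myb, whose promoter drives the reporter, with log2 signals of 11.54 and 11.21 against 11.03 and 10.88. In this list itga2b, rag1 and rag2 were within the absent-sequence range on all 4 arrays. The hair cell list had 1853 and 1814 against 3020 and 2038. Most of the hair cell sum came from cldnb, with log2 signals of 10.79 and 10.76 against 11.53 and 10.94. Of the other measured genes of that list, otofa differed by −0.069 and pcp4a by −0.55. The last, atoh1a, was within the absent-sequence range on all 4 arrays. In the lists of this paragraph other than the pronephric list, 0 genes passed. The part of any of these cells in the result was not tested.

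**Figure D3:**
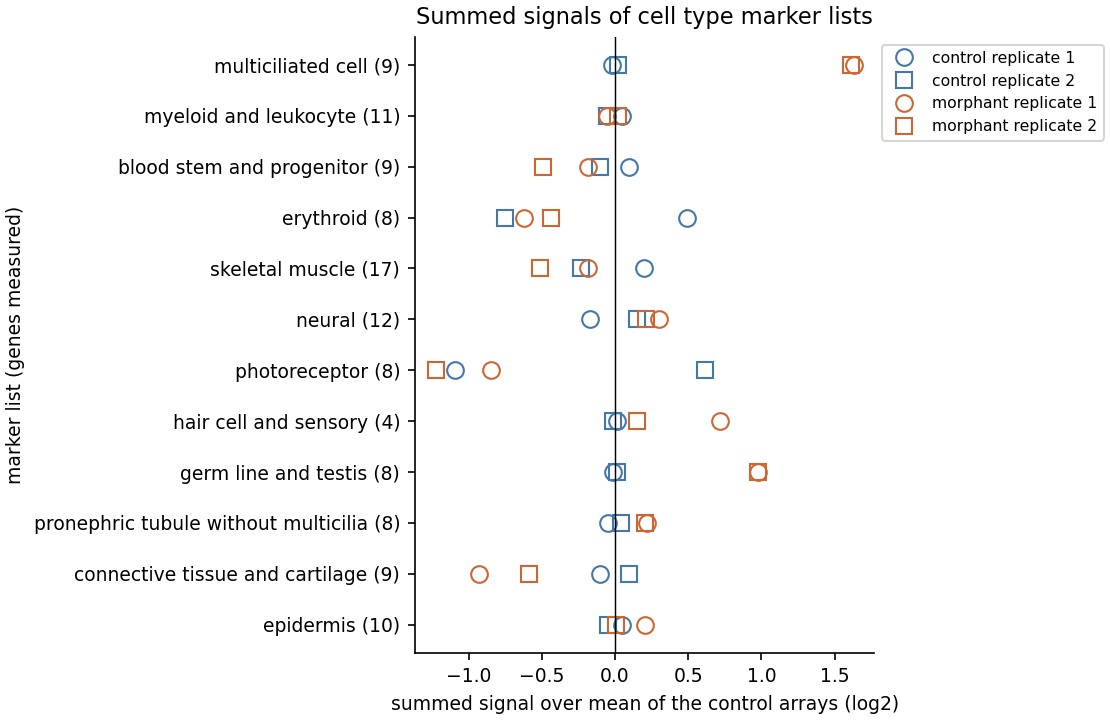
Summed linear signal of 12 cell type marker lists on each array, as log2 of its ratio to the mean of the control arrays (horizontal axis); the number of genes measured stands beside each list (vertical axis), circles are replicate 1 and squares replicate 2. The multiciliated list lies farthest above 0 on both morphant arrays and the myeloid and leukocyte list near 0 on all 4.

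The arrays correlated at r = 0.981 within the controls, 0.977 within the morphants and 0.956 to 0.958 between groups across the probe sets tested, which are not independent replicates. The 24 poly-A control probe sets averaged 9.93 and 9.92 on the control arrays, 9.53 on morphant replicate 1 and 8.73 on morphant replicate 2. The 3′ minus 5′ log2 signal of the actin gene acta1, a measure of RNA integrity and amplification, was 2.54 and 2.47 on the control arrays, 2.38 on morphant replicate 1 and 3.39 on morphant replicate 2. The part of these in the differences was not tested. Without morphant replicate 2 the differences of tekt1, efhc2, cimip2b and cimap1b were 2.38, 2.25, 2.94 and 2.59.

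The genes next to the 4 in the genome were looked up as well. Gene order was taken from RefSeq's table for assembly GRCz12tu, counting protein-coding genes. Of the 32 nearest, 4 on each side of each gene, 9 had a probe set and were tested, and 0 passed in limma (2 had unadjusted p under 0.05). Groups were separate with the morphants higher in 3 of the 9 and lower in 2, against 25.1% and 24.7% of all probe sets tested. Of the 9, rabl2 passed the filter on dim probe sets only through its morphant arrays. With 2.49% and 0.12% of all probe sets called higher and lower, and 17.7% at an unadjusted p under 0.05, these counts say nothing particular about the neighbours. None of the 4 genes was among the neighbours of another. The probe sets of these neighbours were chosen by position alone, a rule added after the results on the 4 genes were known.

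Around tekt1, 4 neighbours had a probe set, with differences from −0.29 ± 0.17 for inpp5ka, an inositol phosphatase gene directly beside it, to −0.094 ± 0.17 for pds5b, a cohesin regulator. The log2 signals of inpp5ka were 7.79 and 7.94 in the controls, against 7.49 and 7.66 in the morphants. All 4 neighbours lay below 0, and inpp5ka alone had separate groups. The only measured neighbour of efhc2 was mao, monoamine oxidase, at −0.099 ± 0.17 in the brightest of its 4 probe sets. That of cimip2b was ywhah, a 14-3-3 protein gene, at 0.14 ± 0.17. Both mao and ywhah had separate groups.

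Around cimap1b 2 of 3 measured neighbours were above 0 with separate groups, as were 25.1% of all probe sets tested with the morphants higher. The gene directly beside it, zgc:77752, had 2 probe sets, of which the brighter is given. Its log2 signal was 4.88 and 5.39 in the controls, and each morphant array was above both, by 0.62 to 1.74. The mean difference was 1.18 ± 0.29 and did not pass (limma adjusted p = 0.129). Its signal on control replicate 1 was under the brightest absent-sequence control. rabl2, a Rab-like GTPase gene with a known ciliary role in mammals, had 4.95 and 4.62 against 5.44 and 6.02, a difference of 0.94 ± 0.26 (adjusted p = 0.158). Both zgc:77752 and rabl2 were much dimmer than cimap1b, whose difference was 2.36. rabl2 passed the filter on dim probe sets only through its morphant arrays, so its being tested depended on the difference that was tested. The third, arf5, a GTPase of vesicle transport, had 0.00055 ± 0.16.

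**Figure D4:**
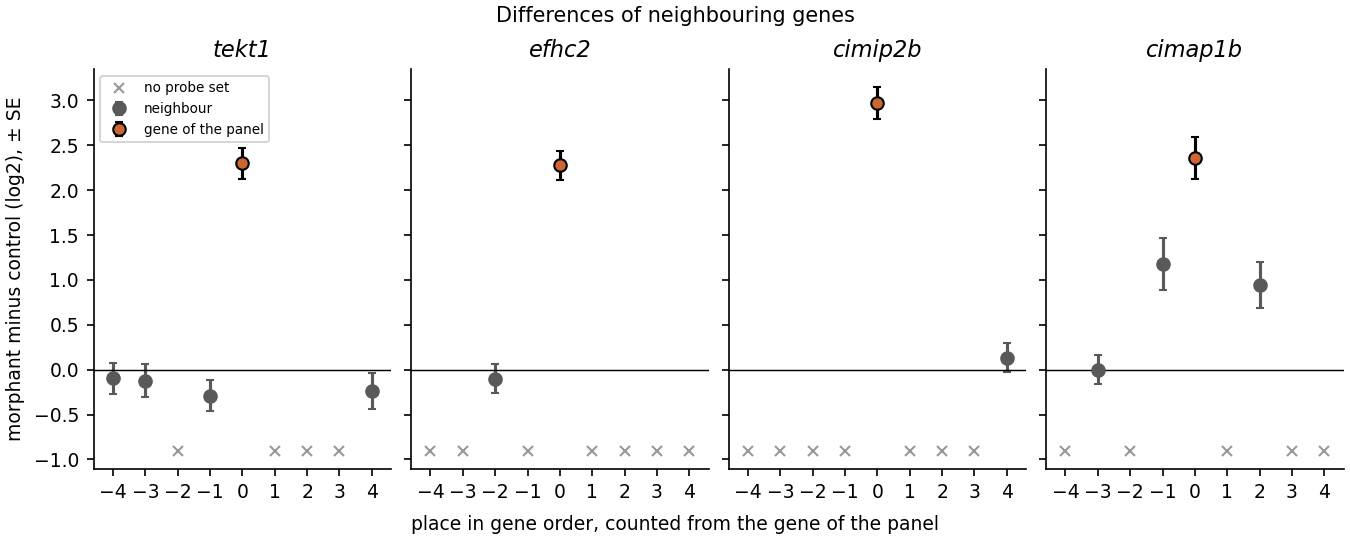
Morphant minus control log2 difference (vertical axis, bars ± SE from limma, n = 2 against 2) of the nearest 4 protein-coding genes on each side of tekt1, efhc2, cimip2b and cimap1b, by place in gene order (horizontal axis); crosses, set at an arbitrary height, mark genes with no probe set under their gene number. The 9 measured neighbours lie between −0.29 and 1.18, all below the gene of their panel.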

How the data were processed

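The deposited values are log2 signals per probe set, scaled per array: every array had the same 2% trimmed mean linear signal, 500.1. The submitters' processing notes name MAS5 with no version. No source used here gives the array's genome build. From the 15617 probe sets, 115 control probe sets and the lowest 25% of the others by mean were left out, leaving 11626. That mean covered the arrays of both groups, so a probe set dim in the controls could pass through its morphant arrays. Group differences were fitted over all of these with limma 3.58.1 in R 4.3.3 (1 term for the group, moderated variances, Benjamini-Hochberg adjustment), and the fit was tested on simulated data. Gene symbols came from the platform annotation, updated through RefSeq gene numbers. For genes with several probe sets the brightest was used. The 4 genes and all lists were chosen with earlier results of these data known. The list genes named by rule were every tektin, every gene with a second probe set and, in each role, up to 4 with the largest differences. The other 5 measured list genes are named so that all are accounted for, after their values were seen. Precision is limited by 2 arrays a group. The alternatives covered the filter, a pseudocount of 16 or 64, quantile and median scaling, a variance trend, a replicate block and each array left out.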

Additional observations from a re-analysis of the deposited data

How the results depend on the processing

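The differences of tekt1, efhc2, cimip2b and cimap1b stayed above 0 in all 12 alternatives, from 2.21 to 2.38, 2.13 to 2.33, 2.38 to 3.10 and 2.13 to 2.59. The lowest value for cimip2b, the dimmest, came with a pseudocount of 64. The list of 14 tektin and inner protein genes had 7 called higher, which became 11 with the filter at 50%, 11 with a variance trend, 11 with a pseudocount of 64, 0 without the filter, and 0 to 2 with an array left out. In it 0 were called lower, and 1, tekt3, with the filter at 50% and with a pseudocount of 64. The list's median of 1.25 became 1.16 with a pseudocount of 16, 0.99 with 64, and 1.05 to 1.34 with an array left out. Over all probe sets, 290 higher became 483 with a variance trend, 500 with a pseudocount of 64, 0 without the filter and 0 to 53 with an array left out. The 14 lower became 63 with the filter at 50%, 103 with a trend, 38 and 82 with pseudocounts of 16 and 64, 8 with quantile scaling, 0 without the filter and 0 to 7 with an array left out. Causes were not tested. With the replicate number as a block, 5 list genes and 196 probe sets were called higher, 0 and 11 lower. The labels do not say that the numbers pair the arrays, and the deviations of same-numbered arrays correlated at 0.021, so this fit was not used further. Among neighbours near 0, none of them called, the sign turned for pds5b (−0.21 to 0.022 with an array left out), n4bp2l2 (−0.28 to 0.034 with an array left out) and arf5 (−0.072 with median centring, −0.040 to 0.041 with an array left out).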

Other observations

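The array holds a control probe set for a green fluorescent protein construct (AFFX-Dr-pd2EGFP_at). In cells sorted for green fluorescence it gave log2 values of 3.74 and 1.61 in the controls, against 1.71 and 2.72 in the morphants, below the brightest absent-sequence control on each array. Which part of the reporter transcript it detects was not analysed here.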
